A study of Rattus norvegicus with 2 samples.

Results

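The 10 genes described here encode proteins that release, take up or buffer calcium in muscle cells: Cacna1s, Ryr1, Trdn, Casq1, Casq2, Atp2a1, Atp2a2, Sln, Pln and Pvalb. They were chosen by name for their role in excitation-contraction coupling. All 10 matched 1 row each of the deposited mRNA table, out of 22312 genes. The irradiated skin had been exposed once to 45 Gy of 6-MeV electrons, at 750 cGy per minute, and the other skin came from an area outside the treated field. All animals were male Sprague-Dawley rats of 4 weeks at irradiation, kept under specific pathogen free conditions. There was 1 library of irradiated skin (titled NC, which the labels do not expand) and 1 library of non-irradiated skin, which leaves every difference below without replicates and without a test of the irradiation. The labels do not give the time of collection, the number of animals or whether tissue was pooled, and the directions below rest on the source labels of the 2 libraries.

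In a skeletal muscle fibre, depolarisation of the surface membrane is sensed by the dihydropyridine receptor, whose pore subunit is Cacna1s. This opens the ryanodine receptor Ryr1 in the neighbouring sarcoplasmic reticulum, which lets stored calcium into the cytosol and starts contraction. Calsequestrins hold calcium inside the store, triadin anchors them to the release channel, parvalbumin binds calcium in the cytosol, and SERCA pumps return it to the store. Sarcolipin and phospholamban are small membrane peptides that restrain those pumps. In rodents a thin sheet of skeletal muscle, the panniculus carnosus, lies beneath the skin.

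Of the 10 genes, 9 differed by less than 2-fold between irradiated and non-irradiated skin. The fast pump Atp2a1, Casq1 and Pvalb, which predominate in fast fibres, were lower in irradiated skin, by the most for Atp2a1 at 2531 against 4229 FPKM (a read density per transcript length and library size). Genes better known from slow fibres and heart did not share 1 direction: Casq2 stood at 35.9 FPKM in irradiated and 21.2 FPKM in non-irradiated skin, and Pln at 4.07 and 0.896 FPKM, while the slow pump Atp2a2 stood lower, at 23.3 and 27.5 FPKM. Pln was the single gene at least 2-fold higher, and it rested on 16 reads in irradiated and 4 reads in non-irradiated skin. None of the 10 was at least 2-fold lower. The minimum for a gene to be kept was 1 FPKM averaged over the libraries. Among the 9743 kept genes, the share at least 2-fold higher in irradiated skin was 9.7%, and the share at least 2-fold lower was 1.53%. The 10 genes all passed that minimum. Their median ratio was -0.13 on the scale log2((irradiated FPKM + 1)/(non-irradiated FPKM + 1)), and that of all kept genes was 0.21. Unless said otherwise, ratios below are on this log2 scale.

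The 250 bases before the annotated start of 4 of these genes are printed here: the calsequestrin pair, whose ratios had opposite signs, and Atp2a1 and Pln, which had the lowest and the highest ratio. They come from RefSeq on build GRCr8, where 9 of the 10 genes had an entry. Capitals mark matches on either strand to the E-box CANNTG, which myogenic factors such as MyoD bind, and to the MEF2 consensus, bound by another family of muscle transcription factors. No match overlapped another.
Casq1, chr13:87212711-87212960, minus strand: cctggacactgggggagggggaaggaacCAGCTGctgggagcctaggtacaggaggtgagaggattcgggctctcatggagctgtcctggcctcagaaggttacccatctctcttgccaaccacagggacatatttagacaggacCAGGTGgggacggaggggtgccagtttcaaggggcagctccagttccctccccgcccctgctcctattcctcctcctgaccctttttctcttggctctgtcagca
Casq2, chr2:192214306-192214555, plus strand: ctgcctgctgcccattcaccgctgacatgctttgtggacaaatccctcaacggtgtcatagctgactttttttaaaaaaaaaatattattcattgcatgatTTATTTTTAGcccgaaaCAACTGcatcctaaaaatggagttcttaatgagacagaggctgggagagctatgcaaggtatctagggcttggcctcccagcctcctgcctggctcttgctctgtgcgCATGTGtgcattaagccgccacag
Atp2a1, chr1:190475411-190475660, minus strand: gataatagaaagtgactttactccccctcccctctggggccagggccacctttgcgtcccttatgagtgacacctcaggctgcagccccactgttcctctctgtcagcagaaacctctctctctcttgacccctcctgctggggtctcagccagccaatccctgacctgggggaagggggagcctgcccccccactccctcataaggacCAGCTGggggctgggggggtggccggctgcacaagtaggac
Pln, chr20:33172244-33172493, plus strand: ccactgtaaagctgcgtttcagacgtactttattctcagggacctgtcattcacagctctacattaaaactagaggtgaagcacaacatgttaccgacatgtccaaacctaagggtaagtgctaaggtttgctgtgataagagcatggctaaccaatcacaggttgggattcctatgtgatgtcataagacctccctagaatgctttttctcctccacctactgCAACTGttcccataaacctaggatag

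Casq1 held an E-box at 222 to 217 and another at 105 to 100 bases before the start. Casq2 held E-boxes at 132 to 127 and 24 to 19 bases before it, and a MEF2 match, TTATTTTTAG, at 149 to 140 bases. Atp2a1 and Pln each held 1 E-box, at 41 to 36 and 26 to 21 bases before the start. Of the 9 genes with an entry, 8 held an E-box and 1, Casq2, a MEF2 match; the CArG box of serum response factor matched none. Among 33360 distinct promoter windows of the same length, 65.5% held an E-box, 2.97% a MEF2 match and 1.50% a CArG box. These are letter matches in a window, and no binding was measured.

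Before the individual genes, the make-up of the 2 libraries matters. An estimated 11197446 reads in irradiated and 12649576 in non-irradiated skin lay on the 22312 genes of the deposited mRNA data. The 10 genes took 2.75% of these reads in irradiated skin (95% exact Clopper-Pearson interval 2.74 to 2.76%) and 3.69% in non-irradiated skin (3.68 to 3.70%). Structural genes of muscle were abundant in both: the 11 fast fibre sarcomere genes summed to 294407 against 300186 FPKM, and the 9 slow ones to 2485 against 2585 FPKM. The fast sum was nearly level although 5 of its genes had a ratio above 0 and 6 below. The 12 muscle genes listed as common to all fibres summed to 74814 FPKM in irradiated and 91271 FPKM in non-irradiated skin. The 8 keratinocyte markers summed to 1202 FPKM in irradiated and 62.4 FPKM in non-irradiated skin. All 7 keratinocyte markers that passed the FPKM minimum were at least 2-fold higher; Dsg3, the marker below it, had no reads in non-irradiated skin. For the muscle genes that were lower, fewer fibres, another mix of fibre types and less RNA per fibre cannot be told apart in whole tissue. The part of these differences in make-up in the results below was not tested.

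**Figure D1:**
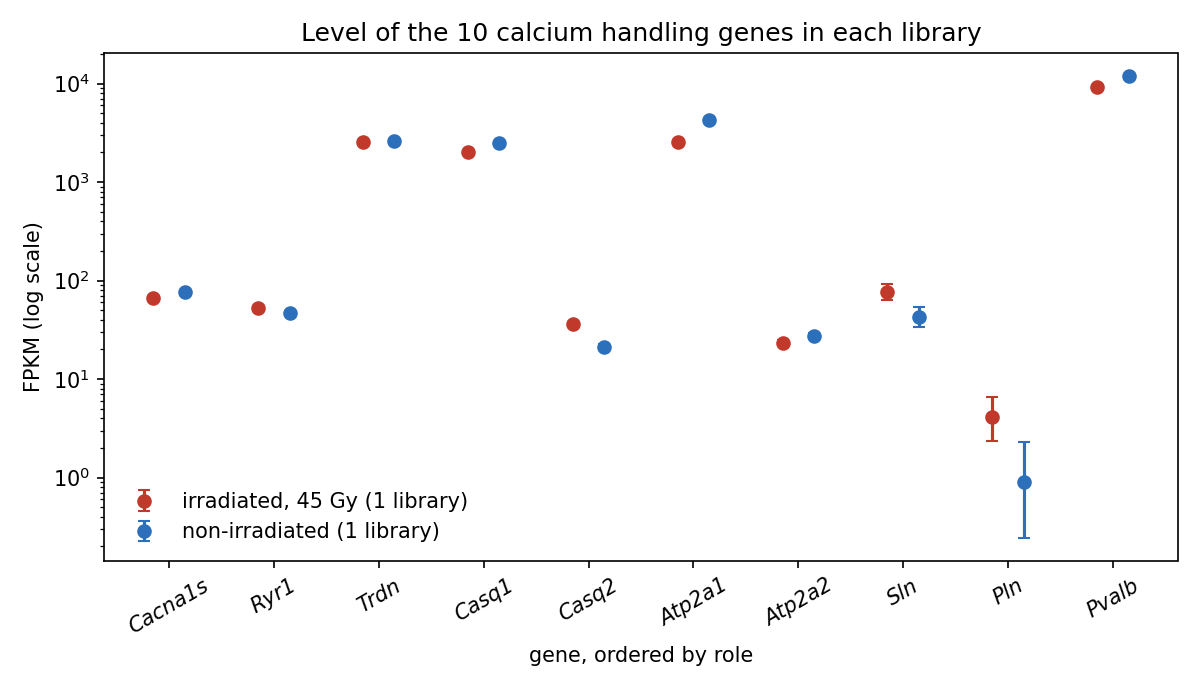
Level of each gene in FPKM on a log axis, with irradiated skin in red at the left and non-irradiated skin in blue at the right of each pair. Bars are 95% exact Poisson intervals of the reads behind each value and cover counting error only; Pvalb is highest in both libraries and Pln lowest.

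The levels of the 10 genes spanned more than 3 orders of magnitude in each library. Pvalb was highest, at 9313 FPKM in irradiated and 11867 FPKM in non-irradiated skin, and ranked 16 and 15 among all genes. Pvalb, Trdn, Atp2a1 and Casq1 together held 98.4% of the summed FPKM of the 10 genes in irradiated skin and 99.0% in non-irradiated skin. In irradiated skin the order after Pvalb was Trdn, Atp2a1, Casq1, Sln, Cacna1s, Ryr1, Casq2, Atp2a2 and Pln. The counting intervals of Trdn (2508 to 2568 FPKM) and Atp2a1 (2515 to 2547 FPKM) overlapped there, as did those of Sln (63.1 to 91.4 FPKM) and Cacna1s (64.3 to 68.1 FPKM). In non-irradiated skin the order after Pvalb was Atp2a1, Trdn, Casq1, Cacna1s, Ryr1, Sln, Atp2a2, Casq2 and Pln. The intervals of Ryr1 (46.0 to 48.1 FPKM) and Sln (33.8 to 53.6 FPKM) overlapped in that library. The other neighbours in each order differed by more than their counting error, which says nothing of the spread between animals.

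The voltage sensor and the release channel differed little. Cacna1s stood at 66.2 FPKM in irradiated and 76.3 FPKM in non-irradiated skin, a ratio of -0.20. Its 95% counting interval, taken from the log2 ratio of scaled counts, was -0.26 to -0.15. Ryr1 stood at 53.3 FPKM in irradiated and 47.0 FPKM in non-irradiated skin, a ratio of 0.18 (counting interval 0.13 to 0.22). Its ratio lay close to the median of all kept genes, 0.21, and 46.8% of kept genes had a lower ratio. When the libraries were rescaled so that this median was 0, the sign of Ryr1 turned, to -0.03. Relative to each other, there were 1.24 FPKM of Cacna1s per FPKM of Ryr1 in irradiated and 1.62 in non-irradiated skin.

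Triadin, which ties calsequestrin to the release channel, was nearly equal in the 2 libraries. Trdn stood at 2538 FPKM in irradiated and 2633 FPKM in non-irradiated skin, a ratio of -0.05 (counting interval -0.09 to -0.05). The sign of so small a ratio depends on scaling. With the libraries set equal on the median of 12 sarcomere and enzyme genes listed as common to all fibres, it was 0.00. The ratios of those 12 genes themselves ran from -0.84 to 1.13, and whether this scale is neutral to fibre type was not tested.

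The 2 calsequestrins, the calcium store proteins, differed in opposite directions. Casq1, the main form of fast fibres, stood at 2005 FPKM in irradiated and 2518 FPKM in non-irradiated skin, a ratio of -0.33. Casq2, the form of heart and slow fibres, stood at 35.9 and 21.2 FPKM, a ratio of 0.73. The interval of their scaled counts lay on either side of 0, at -0.36 to -0.32 for Casq1 and 0.61 to 0.90 for Casq2, on 37508 against 52508 reads and 1018 against 668 reads. Within a library, Casq1 exceeded Casq2 by 55.9 times in irradiated and 119 times in non-irradiated skin. This balance, which does not depend on how libraries are scaled, was lower by 1.09 on the log2 scale in irradiated skin. On scaled counts the same difference was -1.09, with a counting interval of -1.24 to -0.95.

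**Figure D2:**
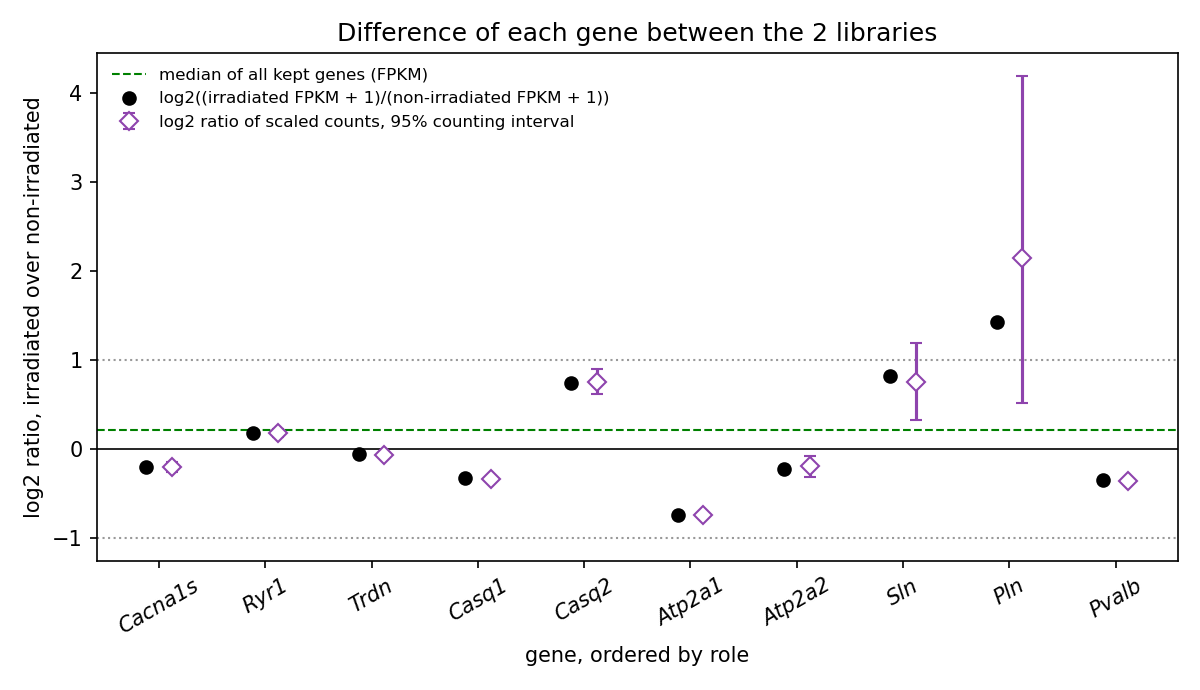
Log2 ratio of irradiated over non-irradiated skin for each gene, from FPKM with a pseudocount of 1 (filled circles) and from scaled counts with the 95% exact counting interval (open diamonds). Dotted lines mark 2-fold and the dashed line the median of all kept genes, 0.21; Pln lies above 2-fold with the widest interval, and Atp2a1 is lowest at -0.74.

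Both calcium pumps were lower in irradiated skin, Atp2a1 by more. Atp2a1 encodes SERCA1, the pump of fast fibres, and had 2531 FPKM in irradiated against 4229 FPKM in non-irradiated skin. Its ratio of -0.74 was the lowest of the 10 genes, and 3.21% of all kept genes had a lower one. It rested on 97802 reads in irradiated and 181668 reads in non-irradiated skin, and the interval of its scaled counts was -0.76 to -0.73. Rabep2, whose row covers the same locus on the opposite strand, had 93 reads in irradiated and 29 reads in non-irradiated skin, few beside those of Atp2a1.

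Atp2a2 encodes SERCA2, the pump of slow fibres and heart, which also serves most cells outside muscle, keratinocytes among them. Atp2a2 stood at 23.3 FPKM in irradiated and 27.5 FPKM in non-irradiated skin, a ratio of -0.23, and a counting interval from -0.31 to -0.08. The table does not separate the muscle and the general transcript of this gene. The keratinocyte markers were higher in the same irradiated library, as given above, and their part in the value of Atp2a2 was not tested. There were 108 FPKM of Atp2a1 per FPKM of Atp2a2 in irradiated and 154 in non-irradiated skin. This log2 difference was -0.50 in FPKM and -0.55 on scaled counts, with an interval of -0.66 to -0.43.

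The pump inhibitors were both higher in irradiated skin, on few reads. Sln, which encodes sarcolipin, stood at 76.2 FPKM in irradiated and 42.9 FPKM in non-irradiated skin, a ratio of 0.82. It had 117 reads in irradiated and 77 in non-irradiated skin, and its counting interval of 0.33 to 1.19 reached past 2-fold. Relative to the pump of fast fibres, there was 1 FPKM of Sln per 33.2 FPKM of Atp2a1 in irradiated skin and per 98.7 FPKM in non-irradiated skin. The difference of this balance was 1.57 on the log2 scale, and 1.50 on scaled counts with an interval of 1.08 to 1.91.

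Pln, which encodes phospholamban, the SERCA2 inhibitor of heart and slow fibres, had 4.07 FPKM in irradiated and 0.896 FPKM in non-irradiated skin. Its ratio of 1.42 was the highest of the 10 genes, and 94.9% of all kept genes had a lower one. The size depends on the pseudocount: it was 2.07 with 0.1 FPKM, and 2.15 for scaled counts with none. With 16 against 4 reads, the counting interval of 0.52 to 4.19 was the widest of the 10 genes and included differences below 2-fold. The locus of the Pln row, chromosome 20 from 36333902 to 36441228 on a build that the sources used here do not name, is shared with Cep85l on the opposite strand. Cep85l went the other way, with 140 reads in irradiated and 339 in non-irradiated skin. The libraries were made with a stranded kit, but whether counting used the strand is not given, so reads of the 2 genes may not be fully separated. Per FPKM of Pln there were 5.73 FPKM of Atp2a2 in irradiated and 30.7 in non-irradiated skin, and the interval of this log2 difference on scaled counts ran from 0.76 to 3.93. For Pln against Sln the interval was -0.24 to 3.03 and spanned 0.

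Parvalbumin, the cytosolic calcium buffer of fast fibres that relax quickly, was lower in irradiated skin to nearly the same degree as Casq1. Pvalb had 9313 FPKM in irradiated and 11867 FPKM in non-irradiated skin, a ratio of -0.35 with an interval of -0.37 to -0.35 on 130876 against 186225 reads. Its balance with the fast pump shifted toward the buffer, since Atp2a1 was lower by more: there were 3.68 FPKM of Pvalb per FPKM of Atp2a1 in irradiated and 2.81 in non-irradiated skin.

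**Figure D3:**
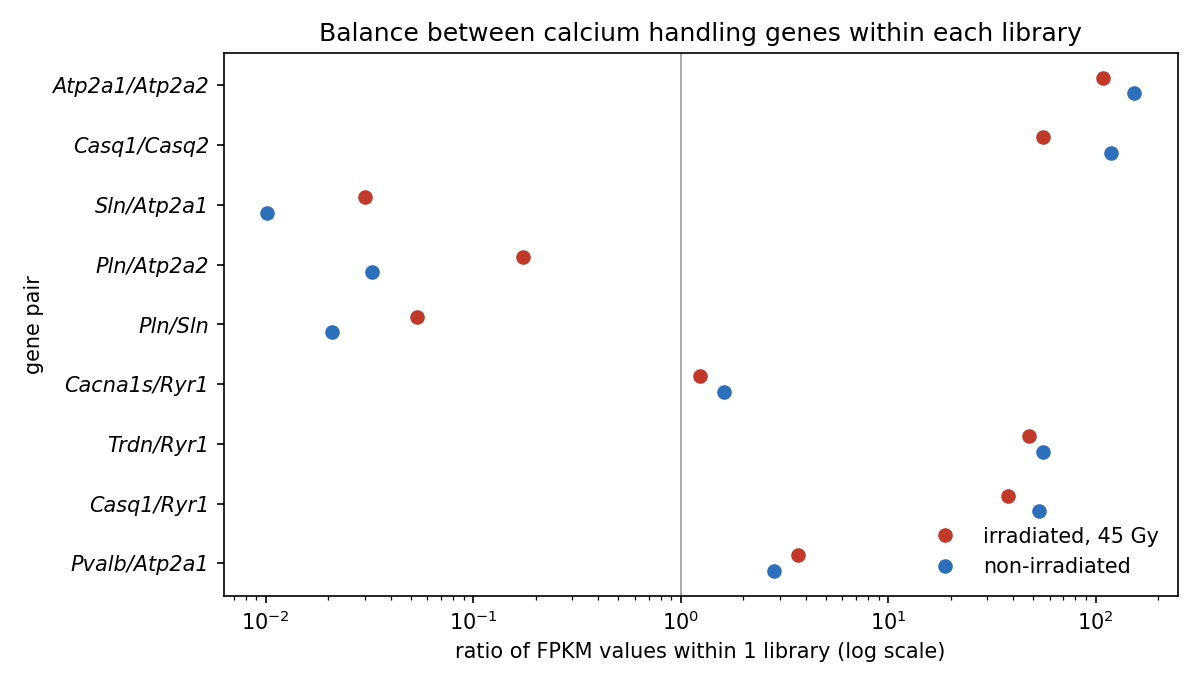
Ratio of the FPKM values of 2 genes within each library, on a log axis, for 9 pairs, with irradiated skin in red above and non-irradiated skin in blue below. Casq1 over Casq2 stands at 55.9 in irradiated and 119 in non-irradiated skin, and Sln and Pln lie nearer to their pumps in irradiated skin.

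Among the 10 genes, 4 had a ratio above 0 and 6 below it, while 32.0% of all kept genes had a ratio below 0. On the deposited scaling, the counting interval of scaled counts excluded 0 for all 10. The signs of Ryr1 and Trdn turned under rescaling. The 4 most abundant genes all had ratios below 0, between -0.74 and -0.05. Pln, Sln and Casq2, the 3 genes with ratios above 0.7, each had fewer than 100 FPKM. Their ratios were above those of 82.8% (Casq2), 85.9% (Sln) and 94.9% (Pln) of kept genes. The other genes below 100 FPKM had lower ratios: Ryr1 at 0.18, Cacna1s at -0.20 and Atp2a2 at -0.23.

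**Figure D4:**
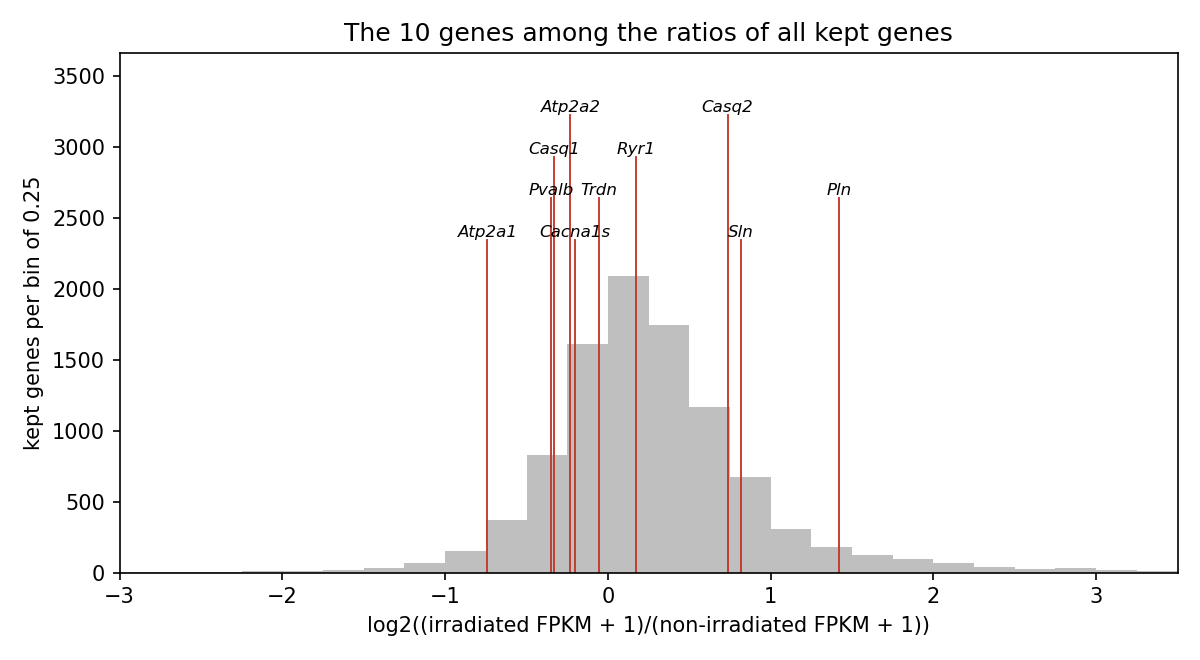
Histogram of the log2 ratio of all 9743 kept genes in bins of 0.25, shown from -3 to 3.5, with the 10 genes marked by red lines whose height carries no value. Atp2a1 lies in the lower tail at -0.74 and Pln at 1.42, while Ryr1, at 0.18, lies near the median of 0.21.

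Other genes of the release apparatus were mostly slightly lower. Of 25 further channel and triad genes, all in the table, 19 passed the FPKM minimum, with a median of -0.24. Of these, 16 had a ratio below 0, beside 32.0% of all kept genes. None was at least 2-fold lower and 1 was at least 2-fold higher. The higher one was Itpr3, an inositol trisphosphate receptor found mainly outside muscle, at 2.01 against 0.20 FPKM on 200 against 22 reads. The 4 most abundant by the mean of the 2 libraries were Jsrp1, a triad protein that binds Cacna1s, at 481 against 598 FPKM, Hrc, a calcium binder of the store, at 454 against 596 FPKM, Bin1, which shapes the T-tubule, at 460 against 556 FPKM, and Cav3, the caveolin of muscle, at 243 against 229 FPKM. Cacng1, a subunit of the dihydropyridine receptor named here after its values were seen, exceeded Cav3 in non-irradiated skin and had 182 against 282 FPKM, a ratio of -0.63. Ryr2, the release channel of heart, had 3 reads in irradiated and 6 in non-irradiated skin. Fkbp1b had no reads in either library.

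Of 27 further pumps, regulators, sensors and buffers, 25 were in the table and 18 passed the minimum, and all 18 lay within 2-fold. Their median was -0.18, with 11 ratios below 0 and 7 above. Among the most abundant were Calm2, which encodes the calcium sensor calmodulin, at 219 against 283 FPKM, S100a1, which modulates ryanodine receptors, at 109 against 144 FPKM, and Orai1, the channel of store-operated entry, at 98.8 against 111 FPKM. Calm2 is the sum of 2 rows, and how reads shared with near-identical copies were counted is not given. The pump inhibitor Mrln and the pump activator Strit1 matched no row and were not analysed here.

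The fibre markers beside these genes did not all differ in 1 direction. Of 11 fast fibre genes, 2 were at least 2-fold higher, none was at least 2-fold lower, and the median was -0.02. The higher ones were the myosin heavy chains Myh1, of type 2X fibres, at 2822 against 1157 FPKM, and Myh2, of type 2A fibres, at 480 against 185 FPKM. Myh4, of the fastest 2B fibres and named here after its values were seen, stood at 3014 against 4747 FPKM. Of the summed FPKM of Myh1, Myh2, Myh4 and the slow Myh7, Myh4 held 47.2% in irradiated and 76.9% in non-irradiated skin, Myh1 44.2% and 18.7%, Myh2 7.53% and 2.99%, and Myh7 1.05% and 1.38%. Of 9 slow fibre genes, 7 had a ratio below 0, with a median of -0.23. Tpm3, a tropomyosin also made outside muscle, was the 1 slow fibre gene at least 2-fold lower, at 107 against 221 FPKM; its scaled counts gave a smaller difference, with an interval of -0.92 to -0.73. The 2 slow fibre genes with ratios above 0 were Mybpc1, at 618 against 374 FPKM (0.72), and Myoz2, at 101 against 70.4 FPKM (0.52). Casq2, Sln and Pln also had ratios above 0. The part of the myosin shift in the values of the calcium genes was not tested.

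Of 12 muscle genes listed as common to all fibres, 2 were at least 2-fold higher and none was at least 2-fold lower, with a median of -0.06. The higher ones were Mb, the oxygen store of oxidative fibres, at 6566 against 3014 FPKM, and Actn2, a Z-disc actinin, at 299 against 136 FPKM. Ckm, muscle creatine kinase, had 16291 FPKM in irradiated and 29251 FPKM in non-irradiated skin, a ratio of -0.84. Myoz1 at -0.74 and Des at -0.75 in this list were close to the -0.74 of Atp2a1. So was Actn3 at -0.72 in the fast fibre list. All were named here after their values were seen, and other ratios reached 1.13 in this list and 1.37 in the fast fibre list. Of the 12 genes, 5 had a ratio above 0 and 7 below it. Of 6 developmental muscle genes above the minimum, the embryonic myosin Myh3 was at least 2-fold higher, at 39.2 against 8.98 FPKM, and the other 5 lay within 2-fold.

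Markers of other contractile cells were examined because Pln, Casq2 and Atp2a2 are also active there. The heart markers Nppa, Myl7 and Tnni3 had no reads in either library, and the 8 heart genes summed to 80.4 against 79.7 FPKM, most of it from Myl4. Tnnt2 was higher, at 8.43 against 2.35 FPKM on 93 against 29 reads. Of 6 smooth muscle genes, 4 were at least 2-fold higher and 1 was at least 2-fold lower, and the list summed to 91.4 FPKM in irradiated and 55.1 FPKM in non-irradiated skin. The higher ones included Myh11, the smooth muscle myosin, at 9.72 against 2.29 FPKM, and Tagln, an actin-binding protein, at 51.3 against 15.3 FPKM, while Lmod1 stood at 6.33 against 24.6 FPKM. Smooth muscle also makes phospholamban, and the part of these cells in the value of Pln was not tested. The brown fat marker Ucp1 had no reads in either library.

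**Figure D5:**
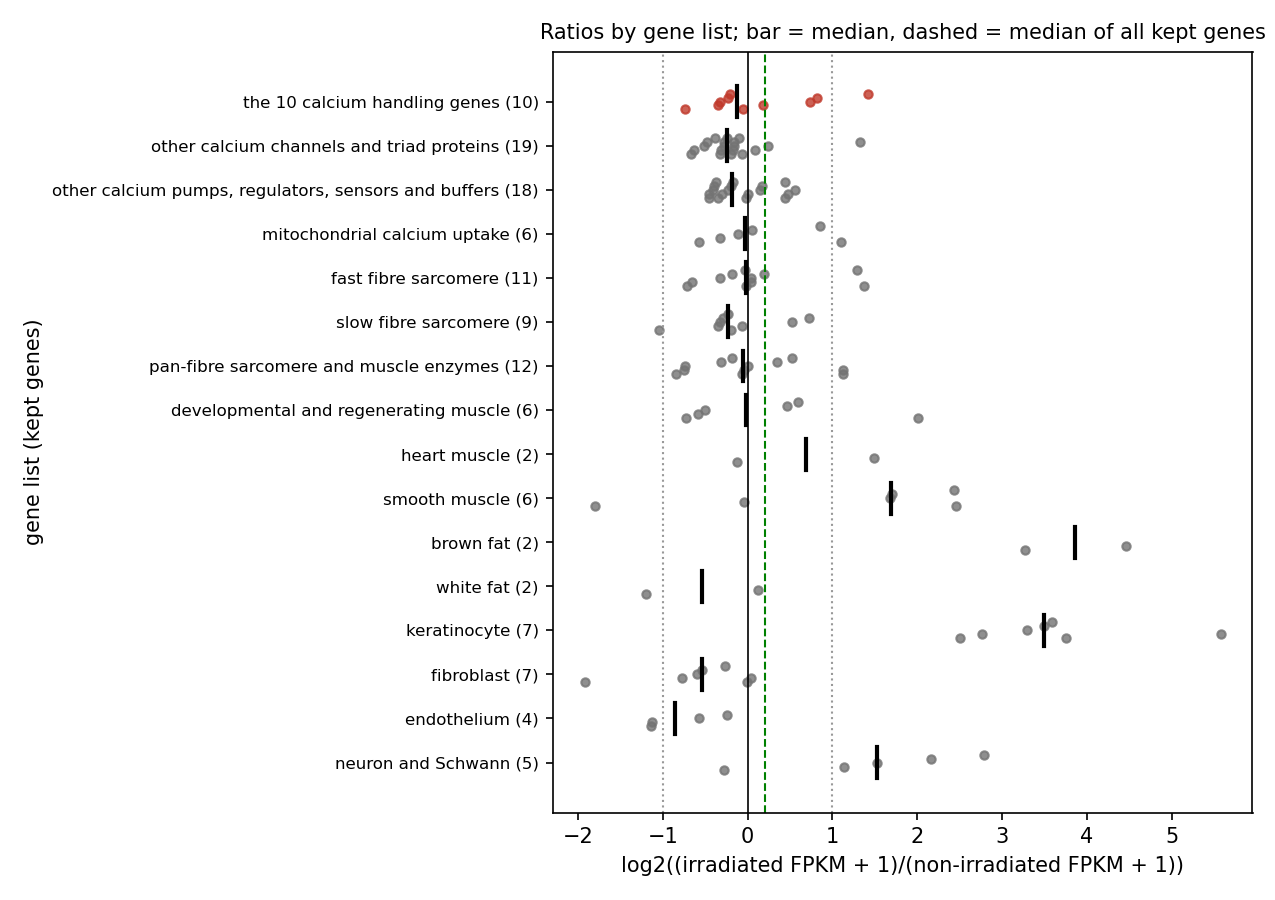
Log2 ratio of every kept gene by list, with the number of kept genes in brackets, the 10 calcium handling genes in red, the list median as a black bar, 2-fold as dotted lines and the median of all kept genes as a dashed line. The 3 calcium lists and the fibre lists have medians between -0.24 and -0.02, while the keratinocyte median lies at 3.49.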

How the data were processed

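Messenger RNA of rat skin was measured in 1 library of irradiated and 1 of non-irradiated skin. Per the labels' protocols, ribosomal RNA was depleted and stranded libraries were run on an Illumina HiSeq. Tools listed in the submitters' processing notes, with no roles, are Cuffdiff, Cufflinks, HISAT2 2.0.4 and cutadapt 1.9.3. Neither build nor strand setting is given in the sources used here. Per the file headers, the authors deposited FPKM values and count columns. The deposited count columns are a scaled signal: their values are multiples of 1.05 (irradiated) and 0.951 (non-irradiated), and 97.7% and 98.0% of values above 0 were whole multiples within 0.01 reads plus 1e-05 per read. Dividing by that step gave estimated reads. No count model was run.

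Rows of 1 symbol were summed, giving 22312 genes from 22714 rows. Genes averaging 1 FPKM or more were kept (9743), a pseudocount of 1 FPKM was added before the log2 ratio, and the threshold was 2-fold, so low genes have understated ratios. With 1 library per group there is no p-value. Counting intervals are 95% exact Clopper-Pearson intervals on the scale of scaled counts, exact Poisson intervals for levels, and normal approximations on the log scale for gene pairs; they cover counting error only and may be too narrow, since PCR copies are not independent. The members and gene lists were chosen with earlier results of these data known. Of 164 genes in 16 lists, 157 matched a row: 155 by symbol, 1 in another case and 1 by RefSeq gene ID. Named genes are all 10 members and, from the calcium and muscle lists, those at least 2-fold different and the most abundant 4, some of which are not reported here; fat, fibroblast, endothelial and nerve lists are given as counts. The steps, run in Python 3.11.15 with scipy 1.17.1 and pandas 2.3.3, were tested on simulated data. Alternatives were another pseudocount, other FPKM minima, scaled counts, 3 rescalings and the highest row per symbol.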

Additional observations from a re-analysis of the deposited data

How the results depend on the processing

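No paired analysis was possible because each group has 1 library. The count of genes at least 2-fold higher was 1 and the count at least 2-fold lower was 0 under the pseudocount of 0.1 FPKM, no filter, scaled counts, all 3 rescalings and the highest row per symbol. With a mean of at least 5 FPKM, Pln was left out and the count of higher genes was 0. The median of the 10 genes was -0.34 with the libraries rescaled to the median of all kept genes and -0.35 with the trimmed mean, by construction a shift by 0.21 and 0.22. Under these 2 rescalings Atp2a1 stood at -0.95 and -0.96, close to the 2-fold threshold, and Casq2 at 0.53 and 0.52. No log2 ratio of the 10 genes changed sign apart from Ryr1 and Trdn. Ryr1 did so under those 2 rescalings, and Trdn under rescaling to the muscle genes listed as common to all fibres. Over all kept genes, 945 were higher and 149 lower as deposited (86.4% higher), against 674 and 266 (71.7%) after rescaling to the median. Depth limits the values of Pln and Sln most; with 1 library per group, no setting bears on the spread between animals.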

Other observations

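Calcium uptake into mitochondria was described by 8 further genes, of which 6 were in the table and passed the FPKM minimum. Their median ratio was -0.03, with 3 ratios above and 3 below 0. Letm1, an inner membrane protein of cation exchange, was the 1 gene at least 2-fold higher, at 6.10 FPKM in irradiated and 2.30 FPKM in non-irradiated skin, on 181 against 76 reads. The most abundant were Smdt1, an essential subunit of the uniporter, at 339 against 503 FPKM, and Vdac1, the outer membrane channel, at 207 against 261 FPKM. Micu2, a gatekeeper of the uniporter, was nearly equal at 21.1 and 22.8 FPKM.

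Among the lists of other cells, none of the 7 fibroblast genes was at least 2-fold higher and 1 was at least 2-fold lower, with a median of -0.54. Of 4 endothelial genes above the minimum 2 were at least 2-fold lower (median -0.85), and of 5 neuron and Schwann genes 4 were at least 2-fold higher (median 1.52). Of 2 white fat genes above the minimum 1 was at least 2-fold lower. Both brown fat genes above the minimum were at least 2-fold higher; these were Cidea and Elovl3, which sebaceous glands also express.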
